A study of Homo sapiens with 18 samples.

Results

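The miR-17-92 cluster and its paralogs were described here in HCT116 cells, an epithelial line from a human colorectal carcinoma that is near-diploid and is labelled wild type. The 10 guide strands of the miR-17-92, miR-106b-25 and miR-106a-363 clusters were taken by name from the mature miRNA tables, in which all 10 were found among 2167 mature miRNAs. They were HSA-MIR-17-5P, HSA-MIR-18A-5P, HSA-MIR-19A-3P, HSA-MIR-20A-5P, HSA-MIR-19B-3P and HSA-MIR-92A-3P of miR-17-92, HSA-MIR-106B-5P, HSA-MIR-93-5P and HSA-MIR-25-3P of miR-106b-25, and HSA-MIR-106A-5P of miR-106a-363. The cells were untreated and were grown as two-dimensional cultures from below confluence to far past it, and whole cell RNA was taken on day 3 at 50% confluency, on day 5 at 250% and on day 7 at 400%. Small RNA was sequenced from 3 cultures of each day, called biological replicates in the labels, and the whole transcriptome of days 3 and 5 was sequenced from 3 each. Day and density rose together, so age of the culture and crowding cannot be told apart. The study asked how growth to high density changes the RNA interference machinery, and the comparisons below ask which members of these clusters changed with it.

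A miRNA guides an Argonaute protein to messenger RNAs that pair with its seed, bases 2 to 8 counted from the 5′ end, and the targeted messages are repressed. miR-17-92 is a polycistron, a single primary transcript from which several hairpins are cut by DROSHA. It is known as an oncogenic miRNA cluster that MYC and E2F factors activate and that is often highly expressed in colorectal cancer. Each hairpin gives a guide strand, which is loaded into Argonaute, and a passenger strand, most of which is discarded. The paralogs arose by duplication, so guides of different clusters share seeds.

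The mature guides fall into 4 seed groups, which cross the clusters. The sequences below are shown because the seed, in capitals, decides which messages a guide can pair with. They are RefSeq sequences (GRCh38.p14), and all 10 guides had an entry. Guides with the seed AAAGUGC, the miR-17 group, come from all 3 clusters.
miR-17-5p: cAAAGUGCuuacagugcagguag
miR-20a-5p: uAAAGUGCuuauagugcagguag
miR-106a-5p: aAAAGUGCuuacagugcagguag
miR-106b-5p: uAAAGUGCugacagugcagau
miR-93-5p: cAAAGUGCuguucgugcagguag
The seed AAGGUGC belongs to miR-18a-5p, and the seed GUGCAAA to both miR-19 guides.
miR-18a-5p: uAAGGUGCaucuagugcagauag
miR-19a-3p: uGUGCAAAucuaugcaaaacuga
miR-19b-3p: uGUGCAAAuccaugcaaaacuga
The seed AUUGCAC, the miR-92 group, is carried by miR-92a-3p and miR-25-3p, and also by miR-92b-3p, which lies outside the 3 clusters and is compared with miR-92a-3p below.
miR-92a-3p: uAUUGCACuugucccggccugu
miR-25-3p: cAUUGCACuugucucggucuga
miR-92b-3p: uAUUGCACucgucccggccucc

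Some of these guides differ by a single base. Positions are counted from 1 at the 5′ end. miR-106a-5p differs from miR-17-5p by C1A alone, so 22 of 23 bases are identical, and miR-19b-3p differs from miR-19a-3p by U11C alone. Reads of such pairs can be split wrongly by a counter that allows mismatches, and this was not tested. miR-19b-3p and miR-92a-3p are each cut from 2 hairpins, one on chromosome 13 and one on chromosome X, with identical guide sequences, so their values cannot be assigned to a cluster. They were counted with miR-17-92.

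In GRCh38, the 6 hairpins of miR-17-92 span 787 bases of the plus strand at chr13:91350605-91351391, inside the long non-coding host gene MIR17HG, where they overlap an exon of at least 1 annotated transcript. The 3 hairpins of miR-106b-25 span 515 bases of the minus strand at chr7:100093560-100094074, within MCM7, which encodes a subunit of the replicative helicase. The mir-106b and mir-25 hairpins are intronic in all MCM7 transcripts, whereas the mir-93 hairpin overlaps an exon of some. The 6 hairpins of miR-106a-363 span 901 bases of the minus strand at chrX:134169378-134170278, in a long non-coding gene with the identifier ENSG00000283638.

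The 10 guides differed widely in abundance. On the mean deposited log2 value, miR-92a-3p ranked 4 of 2167 mature miRNAs, miR-25-3p 21, miR-93-5p 35, miR-20a-5p 55 and miR-17-5p 56. miR-106b-5p ranked 62, miR-19b-3p 96, miR-19a-3p 117, miR-18a-5p 126 and miR-106a-5p 245. miR-92a-3p held a mean of 6.06% of the mature total over the 9 libraries. Among the 4 guides cut only from the chromosome 13 polycistron, which share a primary transcript, the mean share ran from 0.0478% for miR-18a-5p to 0.2145% for miR-20a-5p. miR-20a-5p and miR-17-5p (0.208%) were neighbours whose values overlapped on each of the 3 days, although miR-20a-5p was the higher within each of the 9 libraries. Differences in ligation between sequences also enter such ranks and were not measured.

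The deposited small RNA values are log2 values on the authors' own scale between libraries, and the sum of the back-transformed mature values was not the same on each day. It ran from 1542087 to 1947371 on day 3, from 1712225 to 1884026 on day 5 and from 2452607 to 2600754 on day 7. The day 7 sums lay above all others, and the lowest was day 3 replicate 3. Each comparison was therefore made on the deposited scale and again after dividing every library by its own mature total. No spike-in is named, so these scales cannot be told apart as measures of amount per cell, and in bulk RNA neither can fewer cells with a guide and less of it per cell. The choice of scale set the direction of the day 7 change for all 10 guides, as given below. In the limma fits, the median of all miRNAs tested for day 7 against day 3 was 0.30 (log2) on the deposited scale and -0.19 on mature totals.

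On the deposited scale, 6 of the 10 guides were higher on day 7 than on day 3 and none was lower (limma, adjusted p under 0.05 over 559 miRNAs). The 6 were miR-19a-3p, miR-19b-3p, miR-106b-5p, miR-93-5p, miR-25-3p and miR-106a-5p, so they held all 3 guides of miR-106b-25 and 2 of the 6 of miR-17-92. Of all miRNAs tested, 48.5% were higher and 8.41% were lower, so the share of guides called was near that of miRNAs at large. The median log2 fold change of the 10 was 0.28, against 0.30 for all. After division by the mature total, all 10 had negative values, 8 were called lower and none higher, while 41.0% of all miRNAs were lower. The median of the 10 was then -0.22. Leaving out 1 library left 3 guides called on the deposited scale without day 7 replicate 2 or without day 7 replicate 3. Of all miRNAs, 193 of 542 and 212 of 540 were higher in these 2 fits. On mature totals between 6 and 8 guides were called lower when a library was left out.

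miR-17-5p, the guide that names its seed group, had deposited log2 values of 11.98, 12.04 and 11.78 on day 3, of 11.87, 12.06 and 11.94 on day 5 and of 12.11, 12.20 and 12.16 on day 7. The day 7 values were above those of both other days. The difference from day 3 was 0.22 (standard error 0.10, limma adjusted p = 0.0663), which did not pass the test, but did without day 3 replicate 2 (0.0417) or 3 (0.0215) and in the fit of all 9 libraries (0.0397). As a share of the mature total, the same guide had 0.217%, 0.217% and 0.228% on day 3 and 0.181%, 0.181% and 0.183% on day 7, a log2 difference of -0.28 (adjusted p = 0.000625).

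miR-20a-5p, of the same seed, behaved alike on both scales, with 0.22 (adjusted p = 0.0754) on the deposited scale, a call gained in the same 3 fits (0.0492, 0.0343 and 0.0430), and -0.28 (adjusted p = 0.00127) on mature totals. miR-18a-5p had deposited log2 values of 9.91, 9.94 and 9.64 on day 3 and of 9.90, 10.09 and 10.02 on day 7. These groups overlapped, and the difference of 0.17 did not pass (adjusted p = 0.178). On mature totals its difference was -0.33, with no overlap (adjusted p = 0.000813).

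The miR-19 guides, known as the main oncogenic guides of miR-17-92, moved by different amounts. miR-19b-3p had log2 values of 10.61, 10.66 and 10.43 on day 3, of 10.47, 10.58 and 10.44 on day 5 and of 10.85, 11.06 and 10.96 on day 7. Its day 7 values were above all 6 of the earlier ones, with a log2 fold change from day 3 of 0.39 (standard error 0.10, adjusted p = 0.00472). miR-19a-3p rose by 0.25 on this scale (adjusted p = 0.0478), and this call held in 2 of the 6 fits that left out a library. It was lost without day 3 replicate 1 (adjusted p = 0.0940) and without day 7 replicate 1 (0.0535), replicate 2 (0.209) or replicate 3 (0.141). The call was also lost with each library centred on its median miRNA (0.217) and with no filter on low values (0.166). On mature totals, miR-19a-3p was lower by 0.25 (adjusted p = 0.00676), and miR-19b-3p had -0.11 (adjusted p = 0.118).

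miR-92a-3p was the most abundant guide and had the smallest difference on the deposited scale. Its log2 values were 16.80, 16.85 and 16.81 on day 3, 16.83, 16.96 and 16.85 on day 5, and 16.92, 16.93 and 16.87 on day 7. The day 7 values lay just above those of day 3, by 0.08 (adjusted p = 0.514). On mature totals it had the largest difference of the 10, with 6.13%, 6.07% and 7.47% of the total on day 3 and 5.04%, 4.81% and 4.80% on day 7, a log2 change of -0.42 (standard error 0.07, adjusted p = 0.00148).

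The 3 guides of miR-106b-25 rose on the deposited scale. miR-93-5p had log2 values of 13.33, 13.40 and 13.05 on day 3 and of 13.64, 13.69 and 13.66 on day 7, a difference of 0.40 (standard error 0.11, adjusted p = 0.00591). miR-106b-5p rose by 0.34 (adjusted p = 0.0107) and miR-25-3p by 0.31 (adjusted p = 0.0276), and neither overlapped between days 3 and 7. The miR-93-5p call held in all 6 fits that left out a library, as did that of miR-19b-3p. With no filter on low values the miR-93-5p call was lost (adjusted p = 0.0642), as were those of miR-106b-5p (0.0673) and miR-25-3p (0.161). miR-25-3p lost its call without day 7 replicate 1, 2 or 3 (adjusted p = 0.0876, 0.109 and 0.0657), and miR-106b-5p lost it without day 7 replicate 3 (0.0596). On mature totals the 3 were lower, by -0.10 for miR-93-5p, -0.16 for miR-106b-5p and -0.20 for miR-25-3p (adjusted p = 0.0456, 0.0170 and 0.00343).

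miR-106a-5p, the only guide of the chromosome X cluster among the 10 that comes from that cluster alone, was the least abundant. Its log2 values were 6.92, 6.97 and 6.71 on day 3, 6.93, 7.13 and 6.88 on day 5, and 7.15, 7.28 and 7.26 on day 7. The rise of 0.37 from day 3 passed (adjusted p = 0.0123) but not without day 7 replicate 2 (0.0657). On mature totals its difference was -0.13 (adjusted p = 0.143).

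**Figure D1:**
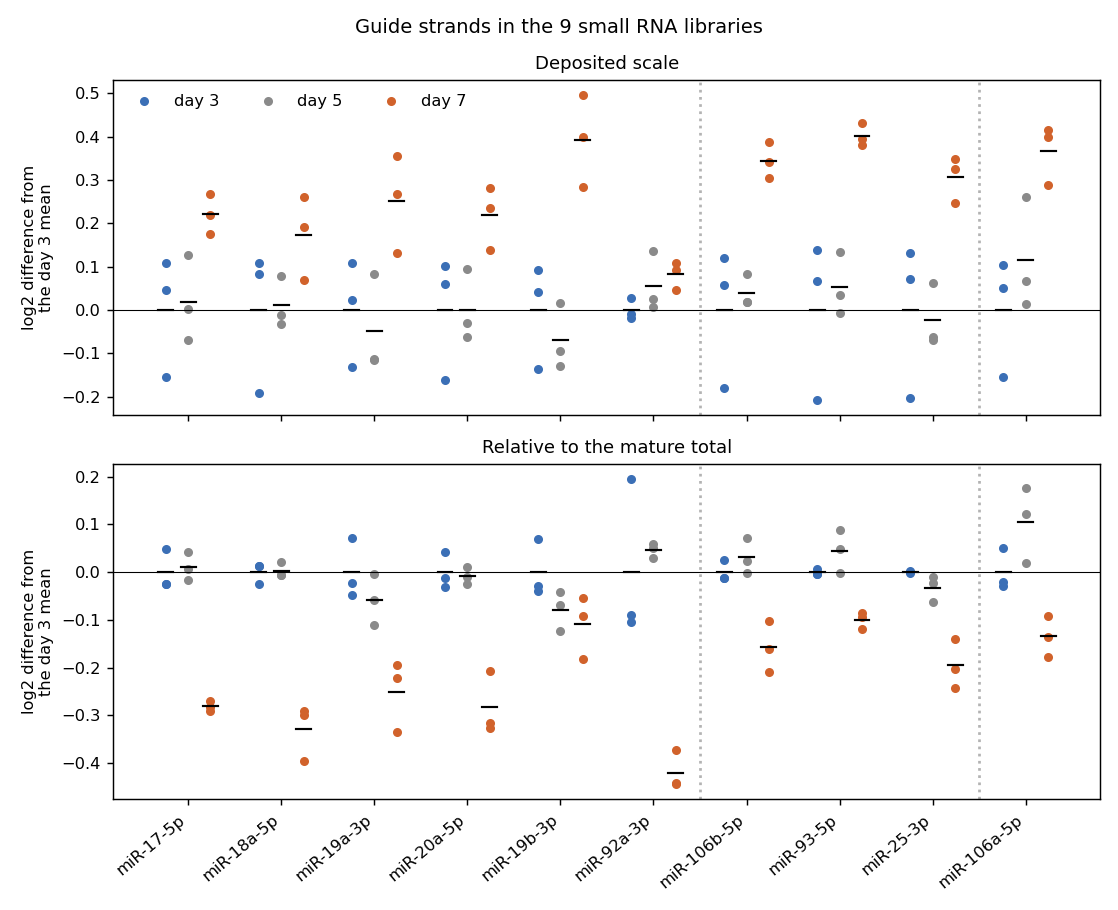
Each point is 1 library, as the log2 difference from the day 3 mean of that guide (vertical axis), on the deposited scale above and relative to the mature miRNA total below. Black bars are means of 3 libraries, and dotted lines separate miR-17-92, miR-106b-25 and miR-106a-363. The day 7 points lie above the day 3 mean in the upper panel and below it in the lower panel for all 10 guides.

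Between day 3 and day 5 the guides did not differ detectably with all libraries included. With a library left out, none passed on the deposited scale, and 1 was called higher on mature totals without day 3 replicate 3. With all libraries, none of the 10 passed the limma test on the deposited scale, on mature totals or with each library centred on its median miRNA. Their log2 differences on the deposited scale ran from -0.07 for miR-19b-3p to 0.11 for miR-106a-5p. At an unadjusted p under 0.05 the count was also 0 on the deposited scale and on mature totals. For comparison, 9.46% of 539 miRNAs were higher and 7.05% were lower on day 5.

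Day 7 against day 5 repeated the pattern of day 7 against day 3, with which it shares the day 7 libraries. On the deposited scale 5 of the 10 were higher and none lower, against 41.3% higher and 5.29% lower of 567 miRNAs. They were miR-19a-3p, miR-19b-3p, miR-106b-5p, miR-93-5p and miR-25-3p, with log2 differences of 0.30, 0.46, 0.30, 0.35 and 0.33. Leaving out a library gave 8 guides without day 5 replicate 2, 5 without day 7 replicate 1 and 4 in each of the other 4 fits, in which miR-19a-3p lost its call (adjusted p = 0.0546 to 0.0884). In these 6 fits 181 to 234 of all miRNAs tested were higher. With each library centred on its median miRNA, 2 guides passed, against 158 higher of 567 miRNAs. In that setting miR-19a-3p (0.225), miR-106b-5p (0.150) and miR-25-3p (0.0531) did not pass. On mature totals 9 were lower, against 45.3% of all, and the exception was miR-19b-3p at -0.03 (adjusted p = 0.606).

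Shares and ratios taken inside 1 library do not depend on the scale between libraries if that scale is 1 factor per library. Scarce miRNAs did not show such a factor. On day 3 miR-363-5p had deposited log2 values of -2.36, -2.34 and -2.38, where miR-93-5p had 13.33, 13.40 and 13.05. How far this enters the shares and ratios was not tested. With 3 libraries against 3 an exact permutation test cannot give p under 0.1, so one test over all 3 days was added after the data were seen. In it the 9 libraries are reassigned to the days in every possible way, and the smallest p it can give is 0.00357. The 10 guides together held 8.59%, 8.52% and 9.96% of the mature total on day 3, 9.30%, 9.23% and 9.07% on day 5, and 7.23%, 6.96% and 6.96% on day 7. The day 7 shares were below those of both other days (exact permutation p over 3 days = 0.0321, adjusted p = 0.0357 over 8 shares). The day 7 difference from day 3 was -1.97 percentage points, and it was -0.29 points without miR-92a-3p and miR-19b-3p.

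The day 3 share of miR-17-92 was 7.20% ± 0.81 (SD, n = 3), that of day 5 was 7.38% ± 0.08, and day 7 gave 5.42% ± 0.12. Without miR-19b-3p and miR-92a-3p, which cannot be assigned to a cluster, the day 7 difference from day 3 was -0.099 percentage points in place of -1.78. The share of miR-106b-25 was 1.82% ± 0.0031, 1.81% ± 0.041 and 1.62% ± 0.035 on the same days. By seed, the miR-92 group held 7.64% on day 3 and 5.83% on day 7, with -0.14 of the difference of -1.81 points left without miR-92a-3p, the miR-17 group 1.19% and 1.05%, the miR-19 group 0.144% and 0.129%, and miR-18a-5p 0.0512% and 0.0408%. Each of these shares was lower on day 7 than on day 3 with no overlap, and their adjusted p over 3 days ran from 0.0286 to 0.0357.

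**Figure D2:**
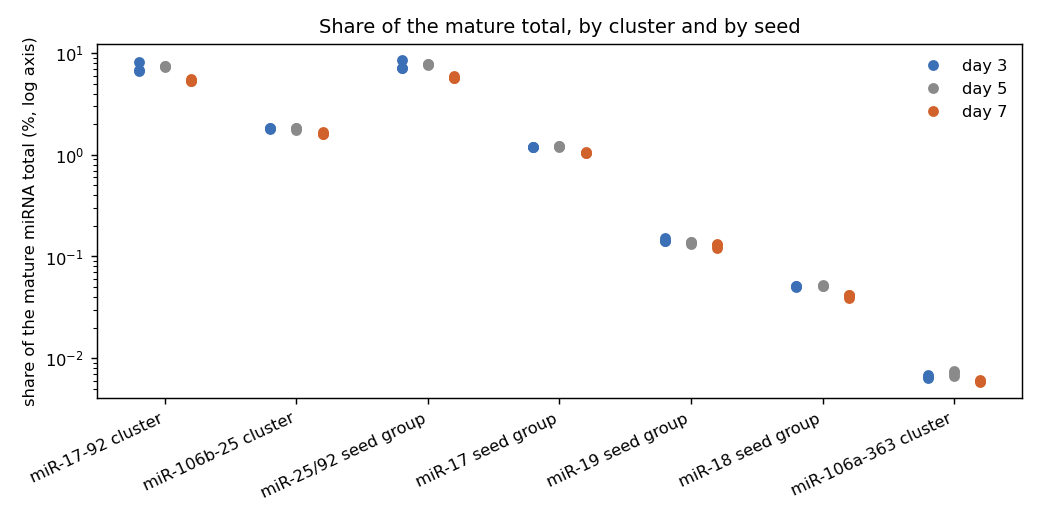
Share of the mature miRNA total in percent (vertical axis, logarithmic) for clusters and seed groups, counting only the 10 guides, with 1 point per library. Day 7 libraries lie below day 3 libraries in every group, and a cluster and a seed group can hold the same guides.

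The clusters did not lose share equally. The log2 ratio of the summed miR-106b-25 guides to the summed miR-17-92 guides was -1.90, -1.88 and -2.16 on day 3, -2.01, -2.03 and -2.04 on day 5, and -1.74, -1.73 and -1.74 on day 7. The ratio was highest in the 3 day 7 libraries, by 0.24 over day 3 (exact permutation p = 0.1, and 0.0250 over 3 days). The difference was 0.15 without replicate 3, whose day 3 library had the lowest ratio. Without miR-19b-3p and miR-92a-3p, which come from 2 clusters each, the difference was 0.12 with no overlap (p over 3 days = 0.0393).

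Relative to the mean log2 value of all 10 guides, miR-19b-3p shifted up by 0.12 from day 3 to day 7 after a lower day 5. Its relative values were -1.16, -1.16 and -1.13 on day 3, -1.22, -1.24 and -1.25 on day 5, and -1.09, -0.98 and -1.04 on day 7. The 3 days did not overlap (exact permutation p = 0.00357, adjusted p = 0.0357 over the 10 guides). It was the only one of the 10 to pass after adjustment. miR-93-5p had a relative difference of 0.13 and miR-106a-5p of 0.09, while miR-92a-3p had -0.19 and miR-18a-5p -0.10 (adjusted p = 0.0643 for each of these 4).

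The mature total held other miRNAs with the same seeds. miR-92b-3p is cut from its own hairpin on chromosome 1 and differs from miR-92a-3p in 3 of 22 bases outside the seed. Its deposited log2 values were 15.48, 15.45 and 15.44 on day 3, 15.72, 15.93 and 15.85 on day 5, and 16.01, 16.09 and 15.98 on day 7. The rise on day 7 was 0.57 (limma adjusted p = 0.000331) and that on day 5 was 0.38 (adjusted p = 0.0238), with no overlap. The day 5 call held only without day 3 replicate 3 among the 6 fits that left out a library, and the other 5 gave adjusted p from 0.0508 to 0.138. On mature totals, the day 5 rise was 0.37 (adjusted p = 0.00918), and the day 7 difference from day 3 was 0.07 (adjusted p = 0.454).

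In log2 terms miR-92b-3p stood at -1.37 ± 0.04 (SD, n = 3) relative to miR-92a-3p in the day 3 libraries, at -1.04 ± 0.06 in those of day 5 and at -0.88 ± 0.03 in those of day 7. No value overlapped between days (exact permutation p over 3 days = 0.00357, the smallest it can give). Of all miRNAs with the seed AUUGCAC, those outside the 10 guides, which are miR-367-3p, miR-363-3p, miR-32-5p and miR-92b-3p, accounted for 25.1% ± 0.57 in day 3 libraries, 29.6% ± 0.84 in day 5 libraries and 31.4% ± 0.43 in day 7 libraries. miR-32-5p, cut from an intron of TMEM245, rose by 0.69 from day 3 to day 7 on the deposited scale (adjusted p = 0.000188) and by 0.18 on mature totals (adjusted p = 0.0353).

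**Figure D3:**
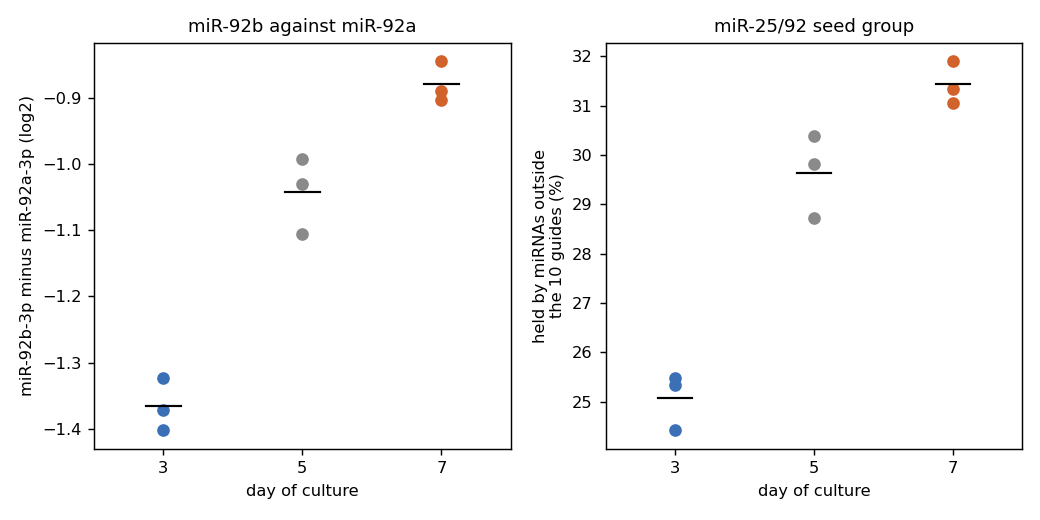
Left, log2 value of miR-92b-3p minus that of miR-92a-3p (vertical axis) by day of culture. Right, percent of the summed miRNAs with the seed AUUGCAC that was held by miRNAs other than miR-92a-3p and miR-25-3p. Points are libraries and black bars are means of 3, and both measures rise from day 3 to day 7 with no overlap between days.

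On the chromosome X cluster, miR-18b-5p, which shares its seed with miR-18a-5p and differs from it by A20U alone, rose by 0.90 from day 3 to day 7 (adjusted p = 0.000380), and by 0.37 on mature totals (adjusted p = 0.0224). It was scarce, with deposited log2 values of 4.62, 4.39 and 4.18 on day 3 and of 5.28, 5.39 and 5.24 on day 7. miR-363-3p did not pass (0.33, adjusted p = 0.340), and miR-20b-5p, miR-18b-3p, miR-363-5p, miR-106a-3p and miR-19b-2-5p were below the filter on low values. The miR-367-3p, miR-519d-3p and miR-526b-3p rows, which share seeds with the guides, were also below it.

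On the deposited scale from day 3 to day 7, 4 of the 8 passengers tested fell, 2 rose and 2 did not pass. Among all 559 miRNAs tested, 8.41% were lower and 48.5% were higher. The 4 that fell were the passengers of mir-19b-1, mir-25, mir-92a-1 and mir-19a. miR-19b-1-5p had log2 values of 4.20, 4.37 and 4.14 on day 3, of 3.64, 4.03 and 3.80 on day 5, and of 3.50, 3.25 and 3.20 on day 7. It was a scarce strand, near the filter on low values, and it fell by 0.92 (adjusted p = 0.00141). Its day 7 replicates 2 and 3 were below the filter value, so it entered this test through its day 3 values. Such entry favours a fall, and its call is given with that limit.

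miR-25-5p had 6.31, 6.54 and 6.33 on day 3 and 5.87, 5.55 and 5.46 on day 7. It fell by 0.77 (adjusted p = 0.000460). miR-92a-1-5p fell by 0.47 (adjusted p = 0.0411), a call that was lost without day 3 replicate 3 (adjusted p = 0.0983), without day 7 replicate 2 (0.160) or 3 (0.102) and with median centring (0.0554). miR-19a-5p fell by 0.32 (adjusted p = 0.0306), which was lost without day 3 replicate 1 (0.0681) or 2 (0.0836) and without day 7 replicate 1 (0.120) or 2 (0.0941). The 2 that rose were miR-18a-3p, by 0.48 (adjusted p = 0.00166), and miR-106b-3p, by 0.28 (adjusted p = 0.0148), of which the second was lost without day 3 replicate 1 or any of the 3 day 7 libraries (0.0512 to 0.0695). These rises were not seen on mature totals, where the values were -0.02 (adjusted p = 0.892) and -0.22 (adjusted p = 0.0376), whereas the 4 falls were larger there.

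The guide to passenger ratio is free of the scale between libraries only where that scale moves both strands alike, which was not tested. For mir-19b-1 the log2 ratio was 6.41, 6.29 and 6.29 on day 3, 6.83, 6.55 and 6.64 on day 5, and 7.35, 7.81 and 7.76 on day 7. The 3 days did not overlap, and the rise from day 3 to day 7 was 1.31 (exact permutation p over 3 days = 0.00357, adjusted p = 0.0143 over 8 hairpins). Its guide is also cut from the chromosome X hairpin, so this ratio mixes 2 hairpins. Its passenger passed the filter through days 3 and 5, with day 7 replicates 2 and 3 below the filter value. For mir-93 the ratio rose from 6.18 ± 0.14 (SD, n = 3) to 6.57 ± 0.07 and 6.79 ± 0.09, also with no overlap (adjusted p = 0.0143).

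For mir-25 the ratio was 7.84 ± 0.14 on day 3, 7.91 ± 0.11 on day 5 and 8.91 ± 0.19 on day 7, with no overlap between day 7 and the earlier days. Its adjusted p of 0.05 sat on the threshold without passing it, as did that of mir-17, which had a difference of 0.16. mir-19a, at 0.57 (adjusted p = 0.0514), mir-92a-1, at 0.55 (adjusted p = 0.1), mir-18a, at -0.31 (0.131), and mir-106b, at 0.06 (0.400), did not pass. mir-20a and mir-106a could not be measured because their passengers were below the filter. The ratios of scarce passengers depend on how the authors' transformation treats low values, which was not tested.

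**Figure D4:**
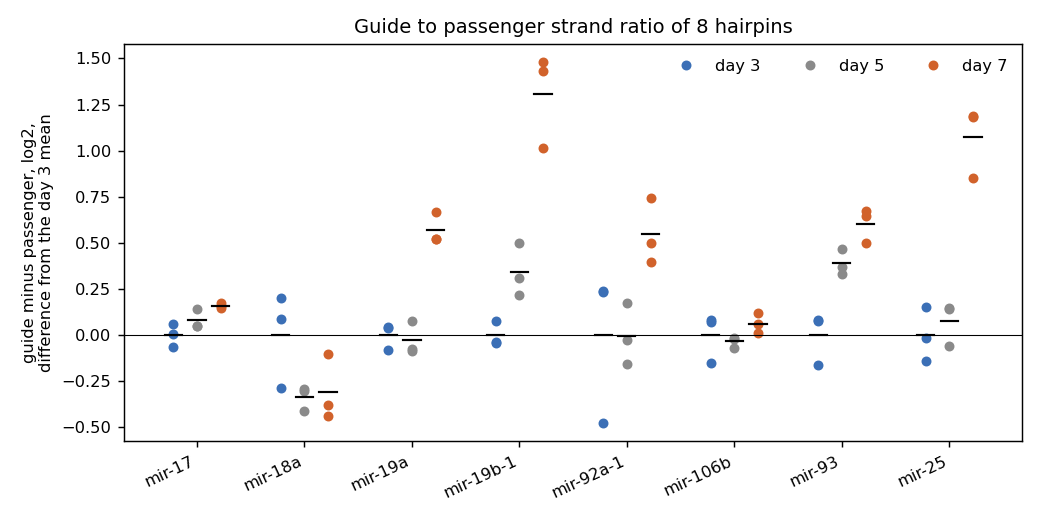
Log2 ratio of guide to passenger strand for 8 hairpins, as the difference from the day 3 mean (vertical axis). Points are libraries and black bars are means of 3, and the day 7 points of mir-19b-1 and mir-25 lie furthest above their day 3 values.

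The miRNAs whose deposited log2 values were most like the mean of the 10 guides over the 9 libraries were miR-191-5p (Pearson r = 0.983), miR-103a-3p and miR-103b (both 0.980, with the same values), miR-126-5p (0.980) and miR-151a-3p (0.979), among 111 abundant candidates. On mature totals they were miR-378a-3p (0.976), miR-128-3p (0.973), miR-378c (0.967), miR-130b-3p (0.962) and miR-484 (0.958). The lists share no miRNA, and all points share the libraries and their scale.

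The whole transcriptome libraries, with 27470978 to 56689369 recovered reads each, gave the host genes of the clusters on days 3 and 5. The day 7 whole transcriptome was not analysed here. MIR17HG, the host transcript of miR-17-92, had normalised values of 1043, 1081 and 780 on day 3 and of 479, 417 and 485 on day 5. All day 5 values were below all day 3 values. It fell by 1.06 on the log2(value + 1) scale (standard error 0.12, limma adjusted p = 1.91e-06), to 0.480 of its day 3 level. Between the same days, the 6 mature guides of miR-17-92 had log2 differences between -0.07 and 0.06 on the deposited scale. The small RNA and whole transcriptome values come from different libraries, and no test joins them.

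MCM7, the host of miR-106b-25, had 8613, 10026 and 12604 on day 3 and 12766, 11482 and 12459 on day 5. The groups overlapped and the difference of 0.25 did not pass (adjusted p = 0.0712), except without day 3 replicate 3 (adjusted p = 1.63e-05), the shallowest library, on library totals (adjusted p = 0.00409) and in edgeR on recovered reads (adjusted p = 0.0486). Over all 20129 genes tested, 31.1% were higher on day 5 and 28.7% lower, with a median difference of 0.01.

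Among known activators of the clusters, MYC had 3408, 4048 and 4665 on day 3 and 8201, 7955 and 8478 on day 5. It rose by 1.03 (adjusted p = 3.42e-07) while MIR17HG fell. E2F1 (0.09), E2F2 (-0.12) and E2F3 (-0.07), which encode cell cycle transcription factors, did not pass, and MYCN was at or near 0 in all 6 libraries.

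Of 6 processing genes, 2 rose, 2 fell and 2 did not pass, against 31.1% higher and 28.7% lower of all genes tested. KHSRP, an RNA binding protein that helps process some miRNA precursors, rose by 1.14 (adjusted p = 4.22e-07), and DROSHA, the nuclear enzyme that cuts hairpins out of the primary transcript, rose by 0.30 (adjusted p = 0.00138). DICER1, which cuts the hairpin to the mature duplex, fell by 0.32 (adjusted p = 0.000972), and HNRNPA1, which binds the mir-18a hairpin and aids its cutting, fell by 0.38 (adjusted p = 0.00208). DGCR8, the partner of DROSHA, and XPO5, the exporter of precursors, had values of -0.13 and 0.12. XPO5 was called higher on library totals (0.18, adjusted p = 0.0286) and without day 3 replicate 3 (0.20, adjusted p = 0.0112).

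Textbook targets of the 4 seeds were also read. Of 30 listed, 27 were tested, of which 18 rose on day 5, 3 fell and 6 did not pass. Over all 20129 genes tested, 31.1% rose and 28.7% fell. The median log2 difference was 0.61 for the listed targets, against 0.01 for all genes. The list was taken from general knowledge with earlier results of these data known, and genes in it respond to many other inputs, so its counts are a description. ESR1 and DKK3 were below the filter and TXNIP was not analysed here.

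In the miR-17 list, 10 of 14 tested genes rose and 1 fell. CDKN1A, which encodes the cell cycle inhibitor p21, had 1911, 2339 and 2543 on day 3 and 4047, 4492 and 4330 on day 5, with no overlap, and rose by 0.93 (adjusted p = 8.42e-07). VEGFA, an angiogenic growth factor, rose by 1.65, ZBTB4, a transcriptional repressor, by 1.37, CCND1, cyclin D1, by 1.23 and STAT3, a cytokine-responsive transcription factor, by 1.10. RBL2, a retinoblastoma relative, rose by 0.72, TP53INP1 by 0.78, and the apoptosis activator BCL2L11, which is in 3 of the lists, by 0.61. RB1 rose by 0.24 and SMAD7 by 0.50. RB1 was not called without day 5 replicate 1 (adjusted p = 0.05) or replicate 3 (0.0820), nor SMAD7 without day 3 replicate 2 (0.0556) or day 5 replicate 3 (0.0983). HIF1A, the hypoxia factor, fell by 0.63 (adjusted p = 7.18e-06). TGFBR2, ITCH and E2F1 did not pass.

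In the miR-92 list, 5 of 6 tested genes rose and 1 fell, and it held the largest rises of the 4 lists. CDKN1C, which encodes the cell cycle inhibitor p57, had 82.5, 108 and 115 on day 3 and 466, 551 and 535 on day 5, with no overlap, and rose by 2.35 (adjusted p = 3.48e-09). KLF4, a transcription factor of differentiating gut epithelium, rose by 2.16, ITGA5, an integrin subunit, by 1.80 and KLF2 by 1.11. FBXW7, a ubiquitin ligase subunit, fell by 0.20 (adjusted p = 0.0287), but not without day 3 replicate 2 (0.0828) or day 5 replicate 1 (0.115) or 2 (0.112), nor on library totals (0.130) or with no filter (0.0565).

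In the miR-19 list, 4 of 6 rose. They were SOCS1, a brake on cytokine signalling, at 0.84, THBS1, an angiogenesis inhibitor, at 0.73, BCL2L11 and PPP2R5E at 0.18. The PPP2R5E call (adjusted p = 0.0350) was lost in 5 of the 6 fits that left out a library, with adjusted p from 0.0524 to 0.0985, and held only without day 3 replicate 3. It was also lost with no filter on low values (0.0728) and with a replicate block (0.0554). SOCS1 was not called without day 3 replicate 1 (0.0509) or day 5 replicate 3 (0.0642). PRKAA1, a subunit of the energy sensor AMPK, fell by 0.28, and CYLD did not pass. In the miR-18 list, SMAD4, the shared mediator of TGF-beta signals, rose by 0.35, and CCN2 and ATM did not pass, although ATM was lower without day 3 replicate 3 (-0.22, adjusted p = 0.00494).

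**Figure D5:**
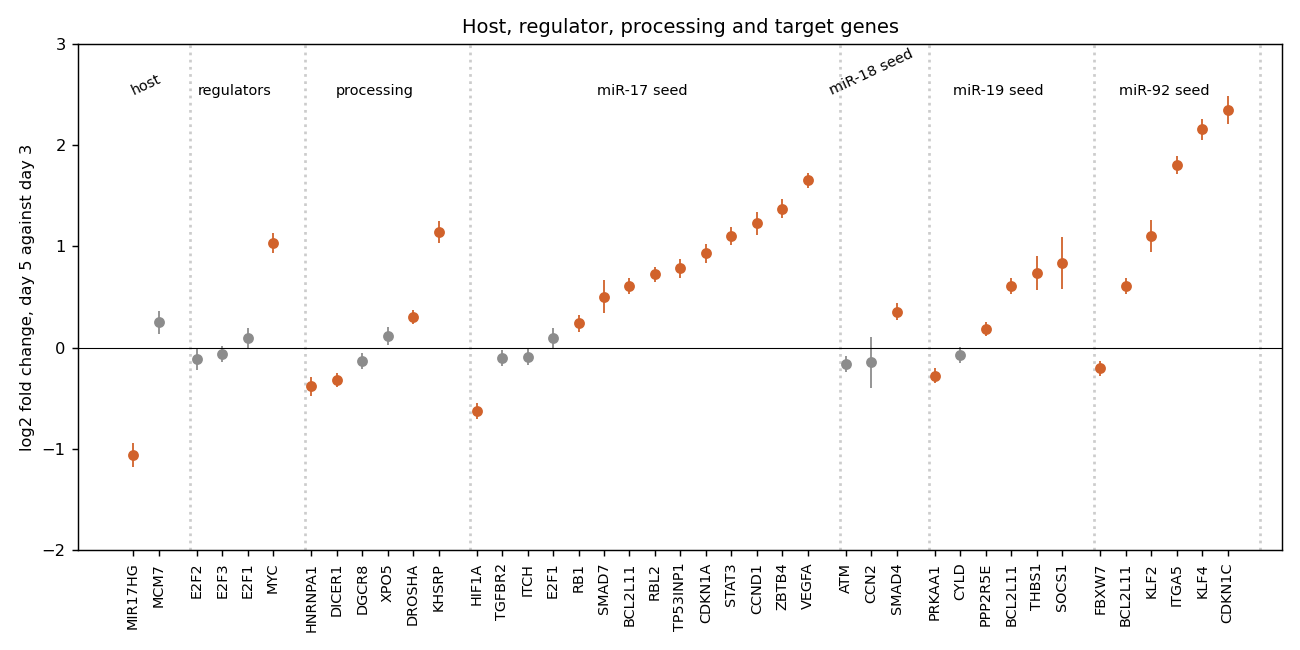
Log2 fold change from day 3 to day 5 with its standard error (vertical axis) for host, regulator, processing and target genes, grouped by list. Orange marks an adjusted p under 0.05 and grey marks none, and MIR17HG has the lowest value while CDKN1C has the highest.

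Matches to the seeds were looked up in the 3′ untranslated regions of these genes, on the sense strand of the canonical GENCODE transcript (release 44, GRCh38). The motif searched is the reverse complement of the seed in DNA letters. GCACTTT, for the miR-17 group, was in 15 of 15 listed genes and in 21.3% of 19140 untranslated regions, and GCACCTT, for miR-18, was in 3 of 4, all but SMAD4, and in 8.87%. TTTGCAC, for miR-19, was in 6 of 6 and in 13.6%, and GTGCAAT, for miR-92 and miR-25, was in 7 of 7 and in 11.2%. The genes had been listed as known targets, the lists hold longer regions than the median one, and a match is no evidence of binding in these cells. One site is shown for each of 5 genes that rose, with the match in capitals and 15 bases before and 4 after.
CDKN1A (chr6:36686253-36686278, plus strand): agaagtaaacagatgGCACTTTgaag
CCND1 (chr11:69652281-69652306, plus strand): ccattccatttccaaGCACTTTcagt
THBS1 (chr15:39597217-39597242, plus strand): tatttttatataatgTTTGCACactg
ITGA5 (chr12:54395294-54395319, minus strand): taaactctgttgcaaGTGCAATaaat
CDKN1C (chr11:2883758-2883783, minus strand): taaattttgaaaactGTGCAATgtat

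The labelled epithelial line expressed 5 of 6 epithelial markers listed for it. EPCAM had 6932 to 7403 in all 6 libraries, and KRT8, KRT18, CDH1 and CDX2 were present, while VIL1, a brush border gene, was near 0, at 1.08 to 5.18. CDH1, KRT8, KRT18 and CDX2 rose on day 5, by 2.63, 1.05, 0.93 and 0.44, EPCAM had 0.00 (limma adjusted p = 0.981) and VIL1 was below the filter. The summed level of all 6 was 30474 to 45216 on day 3 and 67666 to 69905 on day 5. The 4 markers of other cell types that were measured, VIM, COL1A1, COL1A2 and PTPRC, summed to 839 to 913 on day 3 and to 1355 to 1530 on day 5, most of it COL1A1. PTPRC, the defining leukocyte marker, was at 0 in 4 of 6 libraries and at most 2.14. The part of either list in the results was not tested.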

How the data were processed

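HCT116 cells of day 3, day 5 and day 7 were analysed in 9 small RNA libraries, 3 per day, and 6 whole transcriptome libraries of days 3 and 5. The deposited small RNA tables hold log2 values that the authors made by trimming adapters, aligning to miRNA sequences, mature and hairpin (GRCh37), and normalizing, with TMM and edgeR named in the methods. The transformation is not named, so the depth and counting error of these libraries are unknown. The deposited whole transcriptome signal is a normalised value per gene (hg38, strand-specific mapping in CLC Genomics Workbench per the methods). In every library 100% of them could be written as whole reads, to within 0.01 of a read plus 0.001% of the value, which gave the depths. The deposited tables also hold the authors' own fold changes and p-values, which were not used. Every per-library column was assigned, and 0 were left out.

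limma 3.58.1 in R 4.3.3 (trended eBayes) was fitted over all features that reached 10 in 3 or more libraries, on the log2 values as deposited and, for genes, on log2(value + 1), with Benjamini-Hochberg adjustment and a threshold of 0.05. Tests against day 3 used their own 6 libraries, and day 7 against day 5 the fit of all 9. Shares and ratios were tested by two-sided exact permutation. The smallest p is 0.1 for 3 libraries against 3, and 0.25 for 3 pairs. The limma fits, but not the permutation tests, were run on simulated data first. edgeR 4.0.16 and DESeq2 1.42.0 were alternatives on recovered reads. P-values measure the spread between these cultures only. Named were the 10 guides, their passengers, other members of the clusters and seed groups, and listed host, regulator, processing and target genes. A further target gene, which none of the lists as given here holds, is not reported here. Members, lists and tests were chosen with earlier results of these data known. Python 3.11.15, pandas 2.3.3, numpy 2.4.6 and matplotlib 3.10.9 handled the tables and figures.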

Additional observations from a re-analysis of the deposited data

How the results depend on the processing

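The day 7 results turned on the scale between libraries. On library totals, the day 7 against day 3 log2 differences were -0.28 for miR-17-5p, -0.33 for miR-18a-5p, -0.25 for miR-19a-3p, -0.28 for miR-20a-5p, -0.11 for miR-19b-3p, -0.42 for miR-92a-3p, -0.16 for miR-106b-5p, -0.10 for miR-93-5p, -0.20 for miR-25-3p and -0.13 for miR-106a-5p, all reversed, and -0.44 for miR-17-3p, -0.022 for miR-18a-3p, -0.22 for miR-106b-3p and -0.14 for miR-363-3p. With median centring, miR-92a-3p (-0.060) and miR-17-3p (-0.079) reversed. Against day 5, library totals gave -0.19 for miR-19a-3p, -0.031 for miR-19b-3p, -0.19 for miR-106b-5p, -0.14 for miR-93-5p and -0.16 for miR-25-3p. E2F3 became 0.0013 on library totals.

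For day 7 against day 3, 5 guides were called higher and 0 lower with median centring, against 217 higher and 66 lower of 559 miRNAs. In the fit of all 9 libraries 8 were higher, against 289 of 567 miRNAs. The count was 2 with no filter, against 202 higher of 2167 miRNAs, and 0 with a 2-fold minimum. It was 3 to 8 when a library was left out, where 193 to 288 miRNAs were higher. Among those fits, 3 guides passed without day 7 replicate 2 and 3 without day 7 replicate 3. For day 7 against day 5, 9 guides were lower on library totals, against 257 of 567 miRNAs. In the other settings all guides called were higher. They were 2 with median centring, against 158 of 567 miRNAs, and 1 with no filter, against 170 of 2167. With only the 6 libraries of these days they were 9, against 283 of 554. The count was 0 with the 2-fold minimum and 4 to 8 with a library left out, where 181 to 234 miRNAs were higher. The cause of these moves was not tested.

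Deviations of same-numbered libraries correlated at -0.077 to 0.116 over the miRNAs or genes that passed the filter. Taken over all features, these correlations do not settle whether replicate numbers pair the values of single guides. A replicate block gave 6 guides for day 7 against day 3, 0 for day 5 against day 3 and 8 for day 7 against day 5, and 26 listed genes. On the paired sign-flip test of the shares, p cannot go below 0.25.

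The sign of the day 5 against day 3 difference held in every setting for the shares of the miR-17 seed group, the miR-19 seed group and miR-106a-363, and changed for the other 5 shares. Seed group shares here count only the 10 guides. Leaving out a replicate number moved the difference from -0.086 to 0.685 percentage points for miR-17-92, from -0.023 to 0.021 for miR-106b-25, from -0.00019 to 0.00049 for miR-18a-5p, from -0.096 to 0.665 for the miR-92 group and from -0.092 to 0.707 for all 10. Without miR-19b-3p and miR-92a-3p it was -0.0020 for miR-17-92, -0.024 for the miR-92 group and -0.0037 for all. The cluster ratio on day 5 ran from -0.12 to 0.0074 with a replicate left out, was 0.0028 without these guides and 0.028 as a mean of log2 values. The mir-106b arm ratio on day 7 ran from -0.042 to 0.13, CCN2 from -0.44 to 0.12 and E2F1 from -0.00015 to 0.17.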
